A study of Mus musculus with 6 samples.

Results

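The genes described here are those of the proteasome, the protease complex that degrades ubiquitin-tagged proteins. They were taken as every gene symbol of the deposited table that starts with Psma, Psmb, Psmc, Psmd, Psme, Psmf or Psmg followed by a digit, without pseudogenes. The rule found 47 genes of the 14416 in the table. Of these, 46 code for subunits, activators, inhibitors or assembly factors of the proteasome, and 1, Psmc3ip, matched by its name alone, since it codes for a partner of the meiotic recombinases. Psma8 and Psmb11 were not analysed here.

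RNA was sequenced from innate lymphoid cells (ILCs), lymphocytes without rearranged antigen receptors, sorted from mouse lung as Lin-Thy1.2+ cells. There were 3 libraries from wild-type C57BL/6J mice (WT) and 3 from C57BL/6J mice lacking Rbm3 (RBM3KO), which codes for a cold-inducible RNA-binding protein. Mice of both genotypes had received 25 µg of the fungal allergen Alternaria alternata 3 times within 7 days, so no unchallenged sample was compared. The sources used here do not give the kind of knockout allele, the lineage antibodies, the number of mice per library or the age and sex of the mice. Nothing in the labels ties replicates to separate animals, so a p-value here reflects the spread among these libraries alone, which may be technical.

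The proteasome is a barrel of stacked rings, the 20S core, in which outer rings of alpha subunits gate the entrance and inner rings of beta subunits hold the proteolytic sites. A 19S cap recognises ubiquitin, removes it and uses a ring of ATPases to unfold the substrate and feed it into the barrel. Interferons induce a second set of catalytic subunits, Psmb8, Psmb9 and Psmb10, which replace Psmb5, Psmb6 and Psmb7 in newly built particles to form the immunoproteasome, and induce the activator subunits Psme1 and Psme2. Lymphocytes carry much of their proteasome in the immunoproteasome form, which shapes the peptides shown on MHC class I.

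The promoters of an inducible and a constitutive pair of catalytic subunits are shown because these genes form the comparison inside the barrel. Of the 46 proteasome genes, 39 matched the RefSeq promoter table (build GRCm38.p6), and each window is the 250 bases before the start of the gene, read on the gene's strand. The inducible Psmb8 starts after chr17:34197945-34198194 (plus strand), which lies inside the longer GENCODE model of the gene, and the capitals mark a match to the gamma-activated pattern TTCNNNGAA. Psmb9 and the peptide transporter gene Tap1 are transcribed away from each other, and the 225 bases between their RefSeq starts, chr17:34187331-34187555, are given on the plus strand with a CCAAT box in capitals. In GENCODE the models of Psmb9 and Tap1 overlap, and this stretch lies inside that of Psmb9. The constitutive Psmb5 starts after chr14:54617996-54618245 (minus strand), a window whose last bases lie inside the GENCODE model of the gene. Psmb6 starts after chr11:70525107-70525356 (plus strand). In both, the capitals mark the antioxidant-type pattern TGACNNNGC, whose first letters are shared with AP-1 and cyclic AMP response sites.
Psmb8: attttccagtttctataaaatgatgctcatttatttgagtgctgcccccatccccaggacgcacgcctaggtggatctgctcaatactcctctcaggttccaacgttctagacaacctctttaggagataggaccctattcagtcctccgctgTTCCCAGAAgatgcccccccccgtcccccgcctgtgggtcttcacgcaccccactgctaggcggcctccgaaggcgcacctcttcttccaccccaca
Psmb9-Tap1: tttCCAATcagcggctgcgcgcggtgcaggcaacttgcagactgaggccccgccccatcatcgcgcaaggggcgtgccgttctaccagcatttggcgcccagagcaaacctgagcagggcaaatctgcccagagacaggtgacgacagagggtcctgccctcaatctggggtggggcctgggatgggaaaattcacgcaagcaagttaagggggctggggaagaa
Psmb5: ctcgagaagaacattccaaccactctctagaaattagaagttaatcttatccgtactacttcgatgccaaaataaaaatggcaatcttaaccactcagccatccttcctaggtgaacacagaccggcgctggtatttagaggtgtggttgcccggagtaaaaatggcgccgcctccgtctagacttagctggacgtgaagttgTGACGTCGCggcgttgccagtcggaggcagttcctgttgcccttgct
Psmb6: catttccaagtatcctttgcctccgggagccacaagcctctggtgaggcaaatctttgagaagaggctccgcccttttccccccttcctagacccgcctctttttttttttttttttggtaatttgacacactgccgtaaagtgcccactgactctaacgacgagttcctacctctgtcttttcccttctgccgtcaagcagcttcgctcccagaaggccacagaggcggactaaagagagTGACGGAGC

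Each pattern was searched on both strands. Shares of proteasome genes count genes with a match in any promoter entry, and shares of all count promoter entries, so the units differ. TGACNNNGC, the form bound by the proteasome gene regulators Nfe2l1 and Nfe2l2, was found for 5 of 39 proteasome genes (12.8%). These were Psmb5, Psmb6, Psmc6, Psmd12 and Psmd9, and the pattern was in 10.2% of all 32851 promoters. CCAAT was found in 13 of 39 (33.3%) and in 33.8% of all. TTCNNNGAA was present before Psmb8 and Psmg1 (5.13%) and in 7.02% of all, and the interferon-stimulated pattern, GAAA followed after any 2 bases by GAAA, before Psmb3, Psmd4 and Psmd9 (7.69%) and in 2.98% of all. These letters were thus about as frequent before proteasome genes as elsewhere for the first 3 patterns, and a match describes a sequence, not a bound site.

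The libraries held 13339633, 16747682 and 25068137 counts in WT replicates 1 to 3 and 15843924, 16936670 and 7498247 in RBM3KO replicates 1 to 3. A count of 0 allows up to 3 counts, or 0.12 to 0.4 CPM (the count relative to the library total, on edgeR's scale), which covers counting error only. Rbm3 itself averaged 292 ± 22.0 CPM in WT against 26.8 ± 4.63 CPM in RBM3KO (mean ± SD, n = 3 each), which matches the labels. All 14 ILC markers examined, among them Thy1, Gata3 and Il1rl1, were detected in every library. T cell marker levels summed to 204 to 306 CPM in WT and 204 to 367 CPM in RBM3KO, mostly Cd3g, with Cd5 at 0 in 4 libraries. Markers of epithelial, stromal and endothelial cells summed to 63.7 to 150 CPM in WT and 79.2 to 327 CPM in RBM3KO, the last owing to Sftpc in RBM3KO 3. Several lists differed in summed level without overlap between the genotypes. The ILC markers summed to 8258 to 9642 CPM in WT and 10925 to 11295 CPM in RBM3KO. The 5 B cell markers summed to 56.3 to 78.6 CPM in WT and 34.2 to 42.6 CPM in RBM3KO, with Igj at 0 in every RBM3KO library and Ms4a1 at 0 in RBM3KO 1 and 3. The 10 myeloid markers, of which Cd74 made up most, summed to 1715 to 2369 CPM in WT and 1352 to 1650 CPM in RBM3KO, with Itgam and Csf1r at 0 in WT 3, RBM3KO 1 and RBM3KO 3. No single myeloid marker lay apart between the genotypes on edgeR's scale. Cd74 itself overlapped, at 1514 to 2309 CPM in WT and 1291 to 1599 CPM in RBM3KO. The other myeloid markers, summed without Cd74, overlapped between the genotypes as well. The 16 proliferation genes summed to 3148 to 3721 CPM in WT and 1831 to 1960 CPM in RBM3KO, and 12 of them were lower in RBM3KO by the edgeR test used below.

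No single proteasome gene passed the test for a difference between genotypes, and together proteasome transcripts took a slightly smaller share of the RBM3KO libraries. In WT they made up 1.298%, 1.277% and 1.231% of all counts, and in RBM3KO 1.146%, 1.173% and 1.169%. The 3 RBM3KO libraries therefore all lay below the 3 WT libraries. Summed over the 47 genes, the level was 12687 ± 343 CPM of the total count in WT and 11626 ± 144 CPM in RBM3KO (n = 3 each), a difference of -1061 CPM. On the TMM scale, which adjusts library sizes for their composition and on which the levels of single genes below are given, the difference was smaller, at -651 CPM. The exact two-sided permutation p of the first difference was 0.1, the smallest that 3 against 3 can give, and 0.7 after Benjamini-Hochberg adjustment over the 7 per-library measures computed. Psmb8, the most abundant gene, did not carry the difference, which was -1002 CPM without it. The part that the ILC, B cell, myeloid and proliferation transcripts above play in this difference was not tested, and in bulk RNA fewer cells of a type and less RNA per cell cannot be told apart.

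With edgeR's quasi-likelihood test over 11382 genes, in which all 47 were tested, 0 of the 47 had a Benjamini-Hochberg adjusted p under 0.05, where 1.25% of all tested genes did (0.246% higher and 1.00% lower in RBM3KO). DESeq2 and limma-voom also called 0 of the 47, where they called 3.64% and 1.63% of all. At an unadjusted edgeR p under 0.05 stood 1 gene with a higher value in RBM3KO, Psmd11 (5.46% of all tested genes were higher at this level), and 3 with a lower value, Psmb2, Psmd13 and Psmd5 (6.87% of all). The 4 genes together were 8.51% of the 47, against 12.3% of all tested genes, so proteasome genes were not over-represented at this level.

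The signs were less evenly spread. The fitted log2 fold change was below 0 for 39 of 47 proteasome genes (83.0%), against 49.1% of all tested genes and 47.7% of the 5064 genes with a mean of at least 30 CPM. Its median was -0.09 on the log2 scale, against 0.0087 for all tested genes. All 3 RBM3KO values lay below all 3 WT values for 10 genes (21.3%, against 10.5% of all tested genes), namely Psma5, Psma6, Psmb2, Psmc1, Psmc2, Psmc5, Psmd5, Psmd9, Psmd13 and Psmg3. The reverse held for Psmd11 and Psme4 (4.26%, against 8.43% of all). These counts move with the scaling: on CPM of the total count 15 genes lay apart lower (31.9%, against 12.7% of all), and Psmd11 alone lay apart higher (2.13%, against 6.60% of all). Because genes of 1 complex share the same 6 libraries, these counts describe these libraries and are not 47 independent observations.

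**Figure D1:**
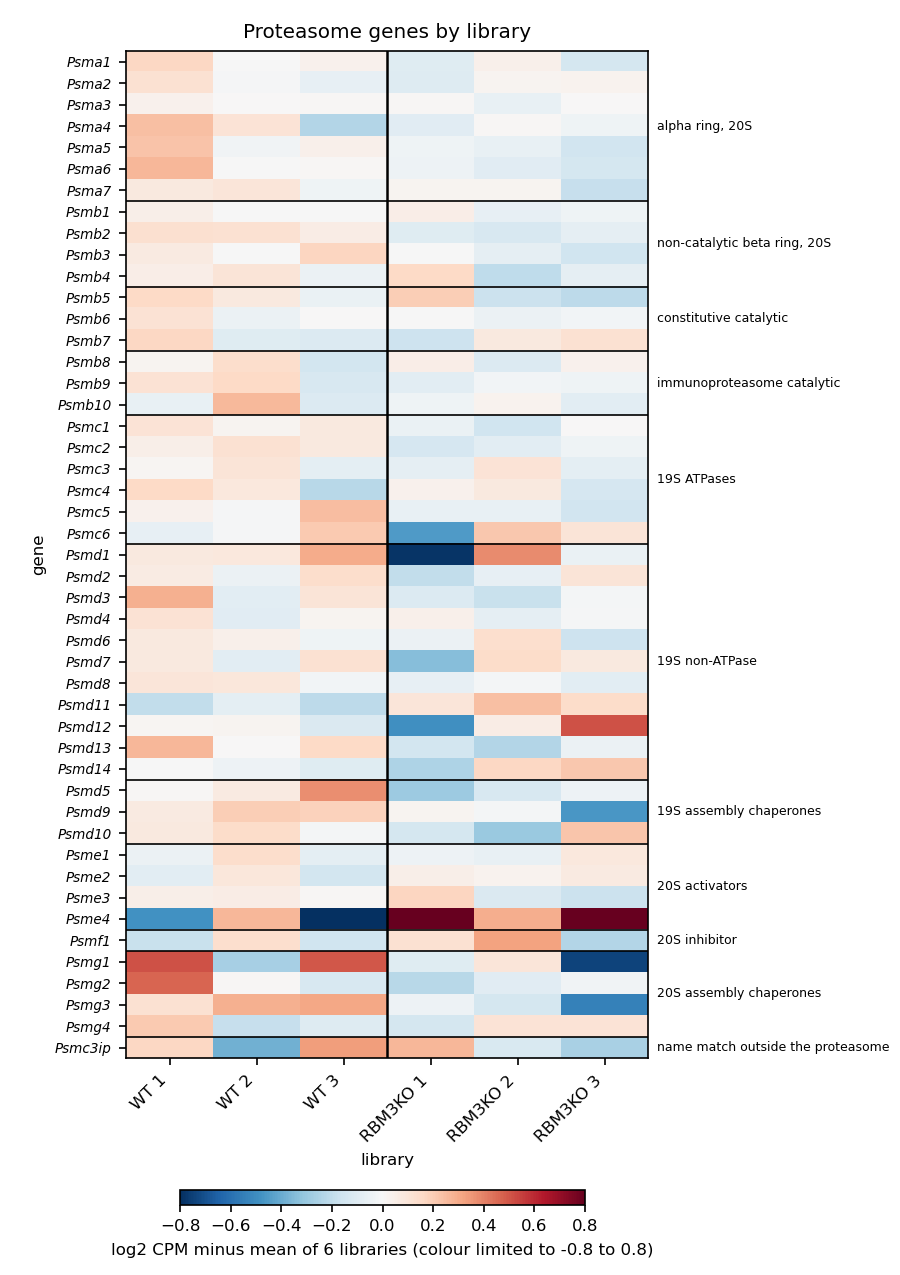
Each cell is the log2 CPM of a proteasome gene (vertical axis, grouped by role) in a library (horizontal axis) minus the gene's mean over the 6 libraries, with colours limited to -0.8 to 0.8. Most cells are pale, and the strongest colours belong to Psme4, Psmd1 in RBM3KO 1, Psmd12 and the Psmg chaperones. WT 1 holds the highest value of 18 of the 47 genes, and of 1713 of all 11382 tested genes.

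Proteasome transcripts also varied little. The median SD of log2 CPM over the 6 libraries was 0.137 for these genes, 0.406 for all tested genes and 0.224 for genes of at least 30 CPM. Beyond that floor the genes were not matched for level, so the part of level in this spread and in the intervals below was not tested. For 32 of the 47 (68.1%) the 95% interval of the log2 fold change lay within -0.5 to 0.5, against 16.9% of all tested genes and 38.0% of those of at least 30 CPM. For these 32 genes a difference beyond 0.5 in either direction lay outside the interval. The other genes, among them Psmd1, Psmd12, Psme4 and the Psmg genes, had intervals that reach beyond 0.5 on at least 1 side.

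The alpha ring gates the barrel, and its 7 genes all had log2 fold changes below 0, with a median of -0.09 and a range of -0.18 (Psma6) to -0.03 (Psma3). Psma7, the most abundant of them, stood at 634, 643 and 586 CPM in WT and 611, 610 and 529 CPM in RBM3KO. These values overlapped, with a log2 fold change of -0.09 (SE 0.09). Psma6 measured 238, 198 and 200 CPM in WT and 193, 186 and 180 CPM in RBM3KO, without overlap, but its edgeR Benjamini-Hochberg adjusted p was 0.570. Psma3 had the smallest spread of the ring, from 276 to 294 CPM over all 6 libraries.

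The non-catalytic beta subunits build the inner rings around the active sites, and the 4 measured (Psmb1, Psmb2, Psmb3 and Psmb4) all had log2 fold changes below 0, with a median of -0.11. Psmb3, the most abundant of the 4, stood at 818, 777 and 879 CPM in WT and 778, 742 and 699 CPM in RBM3KO, where RBM3KO 1 just passed WT 2. Psmb2 measured 473, 471 and 450 CPM in WT and 404, 396 and 412 CPM in RBM3KO. The Psmb2 groups lay apart, with a log2 fold change of -0.20 (SE 0.08), but its adjusted p with edgeR and Benjamini-Hochberg was 0.353.

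The catalytic beta subunits cut the substrate: Psmb5 carries the chymotrypsin-like, Psmb6 the caspase-like and Psmb7 the trypsin-like site. Psmb5 measured 384, 364 and 332 CPM in WT and 395, 306 and 299 CPM in RBM3KO. Psmb6 stood at 555, 495 and 514 CPM in WT and 512, 496 and 503 CPM in RBM3KO. Psmb7 measured 175, 146 and 145 CPM in WT and 139, 165 and 170 CPM in RBM3KO. The genotypes overlapped for all 3, with log2 fold changes of -0.11 (95% interval -0.38 to 0.16), -0.05 (-0.24 to 0.14) and 0.03 (-0.26 to 0.31). Of the exon bases of Psmb7 (chr2:38588036-38644087, minus strand, mm10 with GENCODE M21), 34.9% are shared with Nek6 on the opposite strand, so its unstranded counts are uncertain.

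Their interferon-induced replacements also overlapped between the genotypes. Psmb8 (chr17:34197721-34201454, plus strand) stood at 1315, 1427 and 1168 CPM in WT and 1341, 1201 and 1324 CPM in RBM3KO, the highest counts of any proteasome gene. Psmb9 (chr17:34181987-34187764, minus strand) had 272, 281 and 230 CPM in WT and 237, 248 and 245 CPM in RBM3KO. Psmb10 (chr8:105935735-105938444, minus strand) stood at 259, 323 and 250 CPM in WT and 263, 275 and 254 CPM in RBM3KO. In each case the RBM3KO libraries lay between the highest and the lowest WT library on the TMM scale. On CPM of the total count the lowest library of each gene was an RBM3KO library, just below the lowest WT library. The log2 fold changes were -0.02 (95% interval -0.22 to 0.19) for Psmb8, -0.10 (-0.33 to 0.13) for Psmb9 and -0.07 (-0.33 to 0.18) for Psmb10. Psmb9 shares 15.7% of its exon bases with Tap1, and Psmb8 11.4% with the predicted gene Gm20496, both on the opposite strand.

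The balance between the inducible and the constitutive catalytic genes can be read within a library, without scaling between libraries. The mean log2 CPM of Psmb8, Psmb9 and Psmb10 minus that of Psmb5, Psmb6 and Psmb7 was 0.438, 0.766 and 0.481 in WT and 0.524, 0.569 and 0.564 in RBM3KO. The RBM3KO libraries lay within the WT range, at 0.552 ± 0.025 against 0.562 ± 0.178, and the difference of -0.0092 had an exact two-sided permutation p of 1. WT 2 set the upper end: without it the difference was 0.0929, with an exact permutation p of 0.1, the smallest that 2 against 3 can give.

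Per kilobase of transcript, the 3 inducible genes held 48.65%, 53.63% and 48.65% of the summed level of the 6 catalytic genes in WT and 49.99%, 50.59% and 51.72% in RBM3KO (exact permutation p = 0.8). With coding length in place of transcript length the shares were 61.1% to 65.7% in WT and 62.5% to 63.9% in RBM3KO (exact permutation p = 1), so the share itself depends on the gene model and the comparison of genotypes less so. Pair by pair, the log2 ratio of the per-kilobase levels was 0.998 ± 0.105 in WT and 1.10 ± 0.192 in RBM3KO for Psmb8 to Psmb5. It was -1.76 ± 0.173 and -1.81 ± 0.056 for Psmb9 to Psmb6, and 0.657 ± 0.290 and 0.569 ± 0.167 for Psmb10 to Psmb7. On this scale the inducible partner was thus the more abundant transcript for the Psmb5 and Psmb7 sites in all 6 libraries. For the Psmb6 site it was the less abundant one in all 6. The order at the Psmb7 site is uncertain, since Psmb7 shares 34.9% of its exon bases with Nek6 and reads there may be dropped. Psmb5 shares 12.1% of its exon bases with Mir686 on the same strand. Exact permutation p-values for the difference between genotypes were 0.7, 0.8 and 0.7, and all were 1 after Benjamini-Hochberg adjustment.

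The activator caps open the core without ATP. Psme1 and Psme2, which form the interferon-induced cap linked to antigen processing, overlapped between the genotypes. Psme1 stood at 521, 594 and 510 CPM in WT and 522, 516 and 570 CPM in RBM3KO. Psme2 measured 381, 431 and 366 CPM in WT and 418, 412 and 425 CPM in RBM3KO. Their log2 fold changes were -0.02 (95% interval -0.22 to 0.19) and 0.09 (-0.12 to 0.30).

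The 5 inducible genes, Psmb8, Psmb9, Psmb10, Psme1 and Psme2, shared an order among the WT libraries. On the TMM scale each was highest in WT 2 and lowest in WT 3 of all 6 libraries. Among all 11382 tested genes on that scale, 1432 were highest in WT 2 and 2114 were lowest in WT 3. On CPM of the total count WT 2 stayed highest for all 5. For Psmb8, Psmb9, Psmb10 and Psme1, however, an RBM3KO library then lay below WT 3. The interferon-response transcripts Irf7, Ifit1, Ifit3, Isg15 and Mx1, a subset picked from a longer list after their values were known, summed to 152, 418 and 91.1 CPM in WT and 76.6, 188 and 131 CPM in RBM3KO. This sum was also highest in WT 2 and was lowest of the WT libraries in WT 3, but RBM3KO 1 was lower still. Irf7 made up most of it, at 118, 273 and 76.6 CPM in WT and 59.5, 139 and 98.7 CPM in RBM3KO. Other interferon-linked genes of the same list had another order: Irf1 was highest in RBM3KO 2 and lowest in RBM3KO 3, and Nlrc5 was highest in RBM3KO 3 and lowest in WT 1. Tap1, which shares the promoter stretch shown above with Psmb9, stood at 445, 503 and 397 CPM in WT and 408, 407 and 388 CPM in RBM3KO, highest in WT 2 but lowest in RBM3KO 3. Whether the interferon-response transcripts play a part in the order of the 5 genes was not tested.

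**Figure D2:**
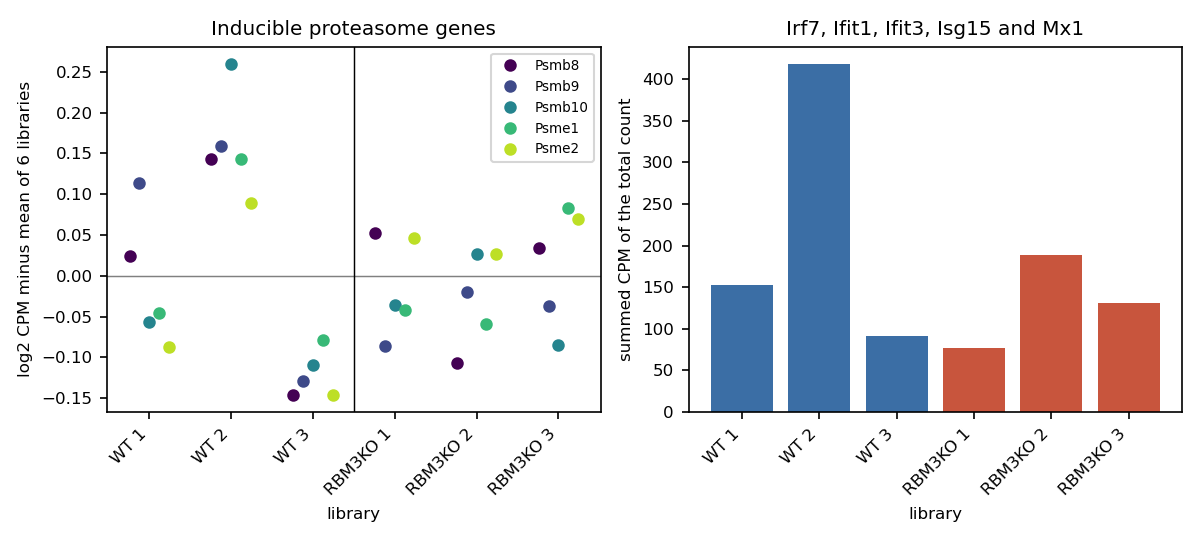
Left, log2 CPM of the 5 inducible proteasome genes in each library minus the gene's mean over the 6 libraries; right, summed CPM of a picked subset of 5 interferon-response transcripts in each library (WT blue, RBM3KO red). All 5 genes peak in WT 2 and, on the TMM scale shown, are lowest in WT 3. The transcript sum, as CPM of the total count, is 418 CPM in WT 2, 91.1 CPM in WT 3 and 76.6 CPM in RBM3KO 1.

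The remaining activators act mainly in the nucleus. Psme3 overlapped between the genotypes, from 240 to 247 CPM in WT and from 211 to 267 CPM in RBM3KO. Psme4 had the largest fitted difference and by far the lowest level of the 47 genes, with 34, 72 and 11 counts in WT and 114, 72 and 96 counts in RBM3KO. As CPM these were 2.51, 4.23 and 0.431 in WT and 7.44, 4.30 and 12.9 in RBM3KO. WT 2 and RBM3KO 2 had the same count, and on CPM of the total count, at 4.30 and 4.25, the groups overlapped. The log2 fold change of 1.78 (SE 0.83) had an edgeR Benjamini-Hochberg adjusted p of 0.418, and the estimate was 1.27 without WT 3 and 2.49 without WT 2. The inhibitor gene Psmf1 stood at 80.8, 100.3 and 81.8 CPM in WT and 99.6, 114 and 77.8 CPM in RBM3KO, which overlapped (log2 fold change 0.15).

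The 19S ATPases, which unfold substrates, had log2 fold changes below 0 for 6 of 6, with a median of -0.10, and for Psmc1, Psmc2 and Psmc5 the RBM3KO libraries lay below the WT libraries. Psmc3, the most abundant, stood at 351, 373 and 330 CPM in WT and 332, 375 and 329 CPM in RBM3KO, with nearly the same range in both genotypes. Psmc5 measured 270, 263 and 314 CPM in WT and 254, 254 and 238 CPM in RBM3KO. Its log2 fold change was -0.18 (SE 0.10), with an edgeR Benjamini-Hochberg adjusted p of 0.530.

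Among the 11 non-ATPase subunits of the 19S cap, 8 had log2 fold changes below 0 and the median was -0.07. Psmd2, a scaffold that docks ubiquitin shuttle proteins and the most abundant of them, stood at 425, 392 and 446 CPM in WT and 354, 388 and 436 CPM in RBM3KO. These values overlapped. A pair of lid subunits lay apart in opposite directions. Psmd11, which ties the lid to the core (chr11:80428615-80473248, plus strand), stood at 126, 136 and 125 CPM in WT and 154, 170 and 159 CPM in RBM3KO. Psmd13 (chr7:140881968-140898643, plus strand) stood at 281, 233 and 260 CPM in WT and 211, 198 and 226 CPM in RBM3KO. Every RBM3KO value was above every WT value for Psmd11 and below it for Psmd13. The log2 fold change of Psmd11 was 0.32 (SE 0.11), and its edgeR p of 0.0149 became 0.240 after Benjamini-Hochberg adjustment. That of Psmd13 was -0.29 (SE 0.11), and its edgeR p of 0.0226 became 0.293. Psmd13 shares 7.64% of its exon bases with Sirt3 on the opposite strand.

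Other 19S genes differed mainly within the RBM3KO group. Psmd14, the deubiquitinase of the cap, stood at 141, 138 and 132 CPM in WT and 119, 159 and 164 CPM in RBM3KO. Psmd12 measured 83.9, 84.1 and 76.6 CPM in WT and 59.0, 86.3 and 118 CPM in RBM3KO. Psmd1, the other large scaffold, stood at 125, 126 and 145 CPM in WT and 68.6, 154 and 114 CPM in RBM3KO. For these 3 genes RBM3KO 1 was the lowest of the 6 libraries while another RBM3KO library reached or passed the WT range. RBM3KO 1 was the lowest library for 7 of the 17 subunits of the 19S cap, where it was the lowest for 2475 of the 11382 tested genes.

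Dedicated chaperones assemble both the core and the cap, and they account for 5 of the 6 most negative estimates of the 47 genes. Of the 3 chaperones of the 19S base, Psmd5 (chr2:34849734-34874968, minus strand) stood at 126, 132 and 162 CPM in WT and 102, 114 and 122 CPM in RBM3KO. Psmd9 measured 62.9, 68.8 and 68.1 CPM in WT and 60.9, 59.4 and 43.5 CPM in RBM3KO. Both lay lower in RBM3KO without overlap, with log2 fold changes of -0.31 (SE 0.14) and -0.28 (SE 0.18) and edgeR Benjamini-Hochberg adjusted p-values of 0.390 and 0.606. Psmd10, or gankyrin, overlapped (log2 fold change -0.13).

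The Psmg chaperones guide the alpha ring and the start of the core. Psmg1 measured 52.6, 30.7 and 52.0 CPM in WT and 34.5, 39.4 and 22.1 CPM in RBM3KO. Psmg3 stood at 36.4, 40.8 and 41.5 CPM in WT and 32.5, 30.4 and 23.0 CPM in RBM3KO. Psmg3 lay lower in RBM3KO without overlap, while for Psmg1 WT 2 lay inside the RBM3KO range. Their log2 fold changes were -0.49 (SE 0.28) and -0.46 (SE 0.22), the most negative of the 47 genes, and their edgeR Benjamini-Hochberg adjusted p-values were 0.551 and 0.435. Psmg3 shares 26.8% of its exon bases with Gm26938 on the same strand, where reads may be split or dropped. Psmg2, the most abundant of the 4, stood at 62.8, 45.9 and 41.7 CPM in WT and 39.0, 42.8 and 44.7 CPM in RBM3KO, and Psmg4 overlapped as well, with a log2 fold change of 0.05. RBM3KO 3, the shallowest library, was the lowest for both Psmg1 and Psmg3. Over 14 alternatives, among them equal depth and RBM3KO 3 left out, the estimates ran from -0.704 to -0.288 for Psmg1. For Psmg3 they ran from -0.562 to -0.331. Beyond these settings the part of its depth in these differences was not tested. Psmc3ip averaged 12.7 ± 3.07 CPM in WT against 11.9 ± 2.33 CPM in RBM3KO.

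**Figure D3:**
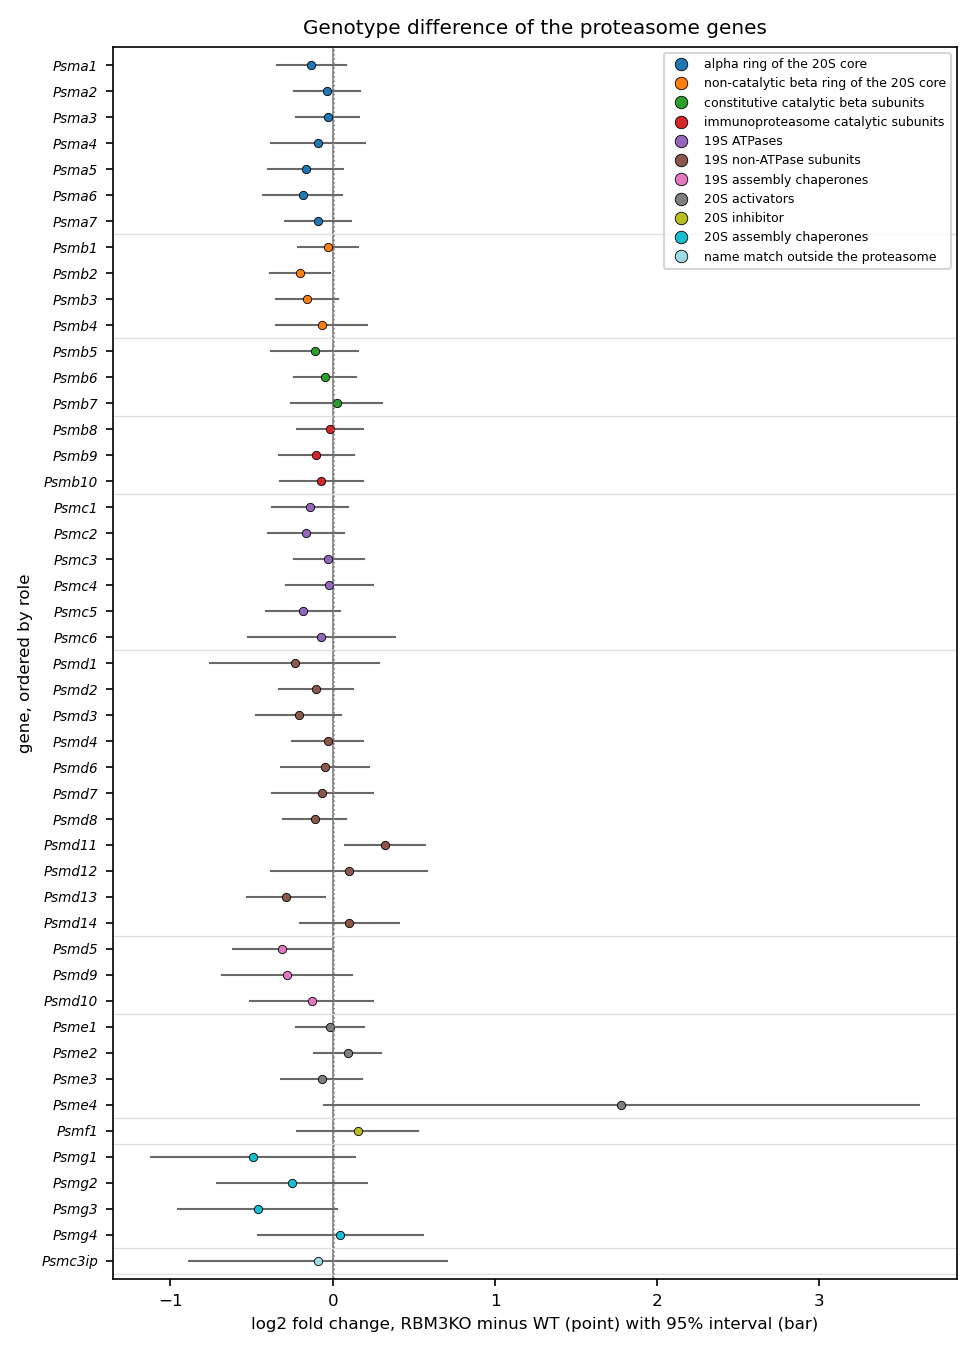
Points are log2 fold changes (RBM3KO minus WT) of the 47 genes ordered by role and coloured by role, bars are 95% intervals, the solid line marks 0 and the dotted line the median of all tested genes (0.0087). Of the 47 points, 39 lie left of 0, and Psme4 at 1.78 has the widest interval.

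Levels of different genes were compared per kilobase of the transcript with the longest coding sequence, so another transcript model would change them. On this scale Psmb3 was highest at 1021 CPM per kb, followed by Psmb8 (796), Psma7 (659), Psmb6 (642), Psmb2 (506), Psme1 (485) and Psme2 (421). Within the alpha ring, whose subunits enter the particle in equal number, the level still ran from 659 (Psma7) to 101 (Psma3) CPM per kb. The place of Psma3 rests on a model of 2846 bases, of which 765 are coding. By CPM without length, Psma4 was lower, at 167 against 287 for Psma3. The ATPase genes ran from 202 (Psmc5) to 27.0 (Psmc6) and the non-ATPase genes of the cap from 256 (Psmd8) to 39.2 (Psmd1) CPM per kb. Chaperone genes ran from 23.3 (Psmd9) to 53.7 (Psmg4) CPM per kb, a range that also holds the cap genes Psmc6, Psmd1, Psmd12 and Psmd11, and Psme4 lay at 0.817 CPM per kb. Neighbours such as Psma7 and Psmb6, or Psmc5, Psmc3 and Psmc4 (202, 192 and 191), overlapped between libraries. Copies annotated as Psmb5-ps, Psmb6-ps and Psme2b can take or split reads of Psmb5, Psmb6 and Psme2.

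**Figure D4:**
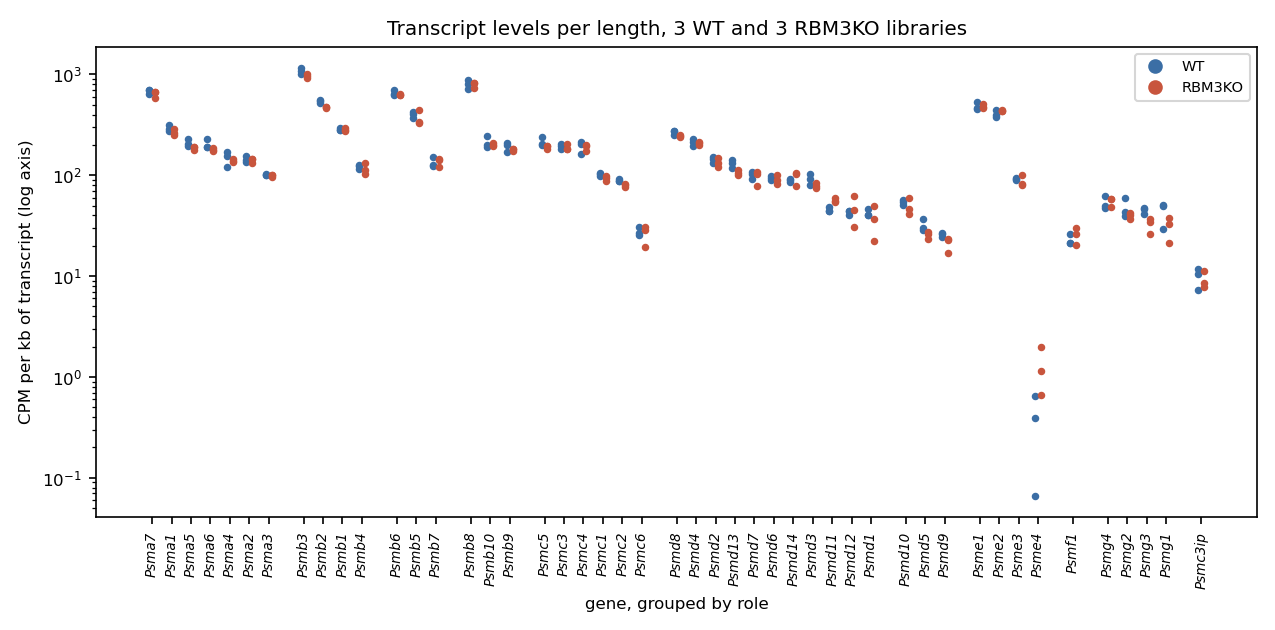
Points are CPM per kb of transcript (log axis) for each gene in 3 WT (blue) and 3 RBM3KO (red) libraries, grouped by role and sorted by mean within each role. In the alpha ring the spread between genes, 659 to 101 CPM per kb with the transcript models used, is much wider than that between libraries of 1 gene. Psme4 and Psmg1 vary widely between libraries. Psmg1 runs from 21.1 to 50.3 CPM per kb, where the means of the Psmg genes run from 36.9 to 53.7.

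A list of 11 further proteasome genes, which holds subunits with other names, the core assembly factor Pomp and proteasome-bound enzymes, had 1 gene past the test, Akirin2, and 9 estimates below 0 (median -0.12). Akirin2, the adaptor that carries assembled proteasomes into the nucleus (chr4:34550937-34566908, plus strand), had 411, 536 and 1023 counts in WT and 140, 157 and 106 in RBM3KO. As CPM these were 30.4, 31.5 and 40.1 in WT and 9.13, 9.37 and 14.3 in RBM3KO. The highest RBM3KO library was below the lowest WT library. Akirin2 fell by 1.65 on the log2 scale (SE 0.29), with an edgeR Benjamini-Hochberg adjusted p of 0.0292. DESeq2 and limma-voom gave adjusted p-values of 0.000117 and 0.0198. Its value stayed between -1.88 and -1.51 in all 14 alternatives, but the edgeR call did not hold without WT 1 (adjusted p 0.119), WT 2 (0.0943), WT 3 (0.105), RBM3KO 1 (0.0761) or RBM3KO 2 (0.107).

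Pomp, the core assembly factor named above, stood at 214, 235 and 213 CPM in WT and 215, 200 and 215 CPM in RBM3KO, which overlapped. The regulator of proteasome gene transcription Nfe2l1 stood at 48.6, 54.8 and 70.6 CPM in WT and 69.4, 72.8 and 66.0 CPM in RBM3KO, with a log2 fold change of 0.26 and an edgeR Benjamini-Hochberg adjusted p of 0.653. In its list of 17 genes for proteasome gene transcription, ubiquitin supply and shuttling, edgeR called 0 (unadjusted p under 0.05: 0 higher and 1 lower, Nploc4), 7 estimates were below 0 and the median was 0.02. Its most abundant genes were the ubiquitin genes Ubb, with means of 950 CPM in WT against 1014 CPM in RBM3KO, and Rps27a, with 760 against 773 CPM.

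The genes that load proteasome products onto MHC class I, with interferon-response genes, formed a list of 14. EdgeR called 0 of them, 8 estimates were above 0, and 5 were higher in RBM3KO at an unadjusted p under 0.05 (B2m, H2-K1, H2-D1, Nlrc5 and Erap1), where 5.46% of all tested genes were. The summed level of the list was 26506 to 29956 CPM in WT and 31019 to 32232 CPM in RBM3KO, without overlap. Most of this sum came from H2-D1 and H2-K1, with means of 14330 and 10362 CPM over the 6 libraries. The remaining genes of the list, summed without them, overlapped between the genotypes. H2-D1 had a log2 fold change of 0.24 and H2-K1 of 0.23, with edgeR Benjamini-Hochberg adjusted p-values of 0.130 and 0.168. Both passed the threshold with the other tools: DESeq2 gave adjusted p-values of 0.0179 and 0.0361, and limma-voom gave 0.0165 and 0.0295. No other gene of the list passed with either tool. Tap1 had a log2 fold change of -0.16, with an adjusted p of 0.610.

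**Figure D5:**
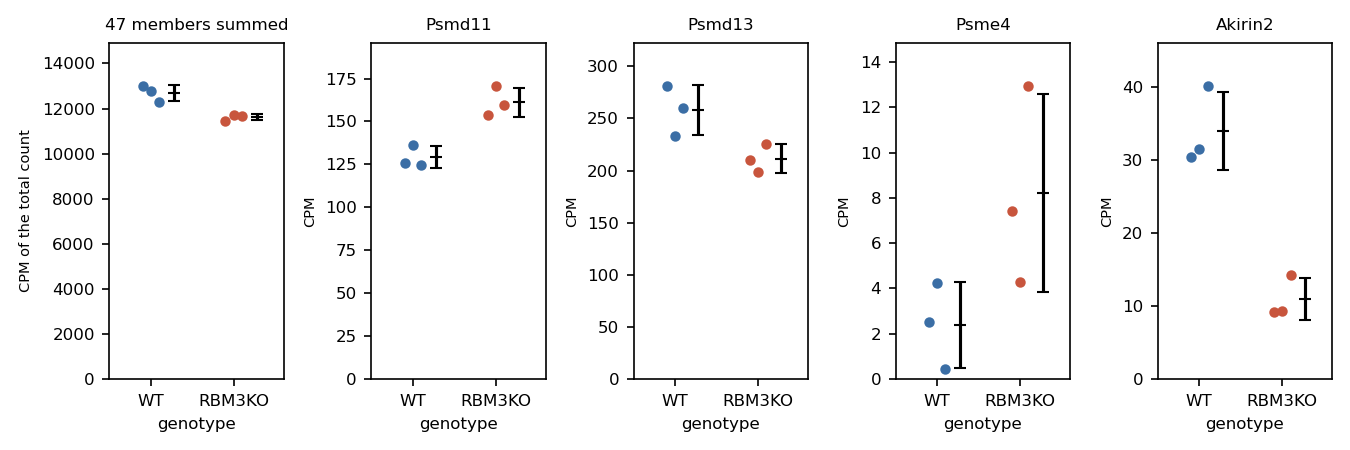
Points are libraries, with mean and SD bars beside them, for the summed level of the 47 genes (CPM of the total count) and for Psmd11, Psmd13, Psme4 and Akirin2 (CPM), on axes that start at 0. The genotypes do not overlap in any panel on these scales, though Psme4 does on CPM of the total count, and of the 4 genes only Akirin2 passed the edgeR test across all genes.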

How the data were processed

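Smart-seq2 polyA RNA libraries (Nextera XT) of 3 WT and 3 RBM3KO samples were compared. The authors deposited raw counts, 1 column per sample with genes named by symbol. Per the submitters' processing notes, featureCounts 1.6.5, STAR 2.6.1c and Bowtie 1.0.0 were used with build mm10, without a stated role or order; the annotation and strand setting were not given in the sources used here. This kit in its standard form marks no strand and carries no molecular identifiers, so overlapping genes share reads and PCR duplicates count as reads.

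Genes were filtered with edgeR's filterByExpr (minimum count 10), which left 11382 genes with 99.9% of the counts, scaled by TMM and compared with edgeR's robust quasi-likelihood test (edgeR 4.0.16, R 4.3.3, no covariate). P-values were adjusted by Benjamini-Hochberg over all tested genes, with a threshold of 0.05. Levels are TMM-normalised CPM, except summed levels, which are CPM of the total count. The inducible-to-constitutive difference of mean log2 CPM and the SD of log2 CPM used a prior count of 2. The per-kilobase pair ratios and the ratio of summed CPM used none. Per-library measures were compared by exact permutation. Lengths and coordinates came from GENCODE M21 (mm10) and promoters from RefSeq (GRCm38.p6). No pair of libraries agreed within sampling noise (chi-square per degree of freedom at least 20.0).

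Per-library values are printed for the catalytic subunits, Psme1 and Psme2, the most abundant gene per role and the 5 highest and 5 lowest fold changes, and others were picked after their values were seen. The members and lists were chosen with earlier results of these data known, and some genes of the lists are not reported here. Alternatives were DESeq2 1.42.0, limma-voom (limma 3.58.1), RLE factors, other filters, a non-robust fit, a replicate block, equal depth, and each library left out.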

Additional observations from a re-analysis of the deposited data

How the results depend on the processing

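Across 14 alternatives, edgeR, DESeq2 or limma-voom called 0 of the 47 genes in either direction, the median log2 fold change of the genes ran from -0.11 to -0.06, and 33 to 39 genes had estimates below 0. The difference in summed level ran from -1249 to -651 CPM, the latter with TMM, all below 0. Log2 fold changes near 0 turned sign. At equal depth this was so for Psmb8 (0.00025), Psmb10 (0.0056), Psmb6 (0.01), Psmc4 (0.013) and Psme1 (0.015), and with limma-voom for Psmc4 (0.026) and Psmd12 (-0.024). Leaving out 1 library at a time gave -0.077 to 0.019 for Psma2, -0.218 to 0.011 for Psma4, -0.176 to 0.013 for Psmb4, -0.029 to 0.118 for Psmb7, -0.092 to 0.052 for Psmb8, -0.143 to 0.052 for Psmb10, -0.088 to 0.019 for Psmc3, -0.274 to 0.06 for Psmc3ip, -0.129 to 0.058 for Psmc4 and -0.201 to 0.11 for Psmc6. It gave -0.533 to 0.024 for Psmd1, -0.084 to 0.018 for Psmd4, -0.131 to 0.019 for Psmd6, -0.157 to 0.071 for Psmd7, -0.165 to 0.321 for Psmd12, -0.061 to 0.056 for Psme1 and -0.031 to 0.174 for Psmg4. The largest estimates kept their sign but moved, from 1.27 to 2.49 for Psme4, -0.704 to -0.288 for Psmg1 and -0.369 to -0.147 for Psmd9. The inducible-to-constitutive log2 ratio differed by 0.0263 with summed CPM and by -0.0710 to 0.0929 with 1 library left out, and the inducible share by -0.377 to 2.11 percentage points. The cause of these changes was not tested. The coding-length share and the counts without overlap on CPM of the total count were added after seeing the data.

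Replicate numbers are shared between genotypes, but same-numbered libraries deviated together only weakly (correlations 0.056, 0.057 and 0.005), so the numbers were not taken as pairs. With the replicate block 0 of the 47 genes were called, their median was -0.08, the summed difference was -1061 CPM (exact permutation p = 0.25, the smallest for 3 pairs) and the log2 ratio difference was -0.0092 (exact p = 1). Psme4 could not be computed under a filter of 10 CPM in 3 libraries. Depth limits Psme4 most, whose counts ran from 11 to 114, and 3 libraries per genotype limit every permutation p to 0.1 or more.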
